A study of Mus musculus with 2 samples.

Results

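The genes described here code for 10 enzymes of glycine, serine and one-carbon metabolism: Phgdh, Psat1, Psph, Shmt1, Shmt2, Mthfd1, Mthfd2, Mthfd1l, Gldc and Tdh. They were selected from 38458 gene columns with their measured ratios between the libraries in view, so those ratios are given as a description and without a test. Expression was measured by single-cell RNA sequencing with inDrops, a droplet method in which captured transcripts receive unique molecular identifiers (UMIs). The cells were Terc-/- mouse embryonic stem cells (mESCs) of the line DKO741, made in E14 mESCs by targeting both alleles of Terc, the RNA component of telomerase. The 2 groups came from the same line: PD100 cells (100 passage in the labels), before alternative lengthening of telomeres (ALT) was established, and PD800 cells (800 passage), a survivor culture maintained by ALT. Both libraries were Terc-deficient and no library of cells with telomerase was analysed here. The cultures were kept on mouse embryonic fibroblast feeders, whereas feeder-free cells were taken for experiments.

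Each group had 1 library and 1 cell line. Time in culture, ALT and library preparation therefore cannot be told apart, and a lower level cannot be assigned to fewer cells or to less RNA per cell from summed counts alone. After the filter on cells, 814 PD100 cells with 1826233 UMIs and 900 PD800 cells with 2580963 UMIs remained, at median depths of 2151 and 2701.5 UMIs. Of the stem cell markers, among them Pou5f1, Sox2 and Nanog, 10 of 10 were detected in both libraries, with a summed level of 11903 CPM (UMIs scaled to 1000000 per library) in PD100 and 12610 in PD800. The 14 markers of extraembryonic endoderm summed to 618 CPM in PD100 and 37.6 in PD800, where Gata6, Srgn and Ctsh were at 0. The 7 fibroblast markers summed to 13.1 and 12.4 CPM, with Col1a1 and Lum at 0 in PD100 and Dcn at 0 in PD800. The median share of mitochondrial UMIs was 1.23% in PD100 and 4.42% in PD800, and 8 barcode names occurred among the cells of both libraries.

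Serine is made from a glycolytic intermediate by Phgdh, Psat1 and Psph in turn. Serine hydroxymethyltransferase then moves a carbon from serine to tetrahydrofolate and leaves glycine, in the cytosol through Shmt1 and in mitochondria through Shmt2. The carbon is passed between its folate-bound forms and formate by Mthfd1 in the cytosol and by Mthfd2 and Mthfd1l in mitochondria. It is used for purines, thymidylate and methionine. Mitochondria can also take a carbon from glycine through the glycine cleavage system, of which Gldc is the decarboxylase. In mouse embryonic stem cells Tdh, threonine dehydrogenase, begins the breakdown of threonine to glycine and acetyl-CoA, and these cells are known for their need of threonine.

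All 10 enzymes had at least 50 UMIs over both libraries together, the minimum for the 6984 genes called tested genes here. Levels are in CPM, ratios are log2 of the PD800 level over the PD100 level, and each interval is a 95% interval for counting error only. All 10 enzymes had a ratio below 0, as had 66.6% of all tested genes. At least 2-fold lower in PD800 were Gldc, Psat1, Mthfd1l and Shmt1 (4 of 10, against 16.9% of tested genes), and 0 of 10 were at least 2-fold higher (against 9.22%). The median of the 10 ratios was -0.94 and that of all tested genes -0.34. Relative to the latter median, called the shift here, 2 of 10 were at least 2-fold lower, Gldc and Psat1 (against 7.79% of tested genes), and 0 of 10 at least 2-fold higher (against 13.9%). A whole interval below the shift was found for 7 of 10, all but Shmt2, Mthfd1 and Psph, and for 26.5% of tested genes. These shares are printed as background, since the ratios took part in the choice of the genes.

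**Figure D1:**
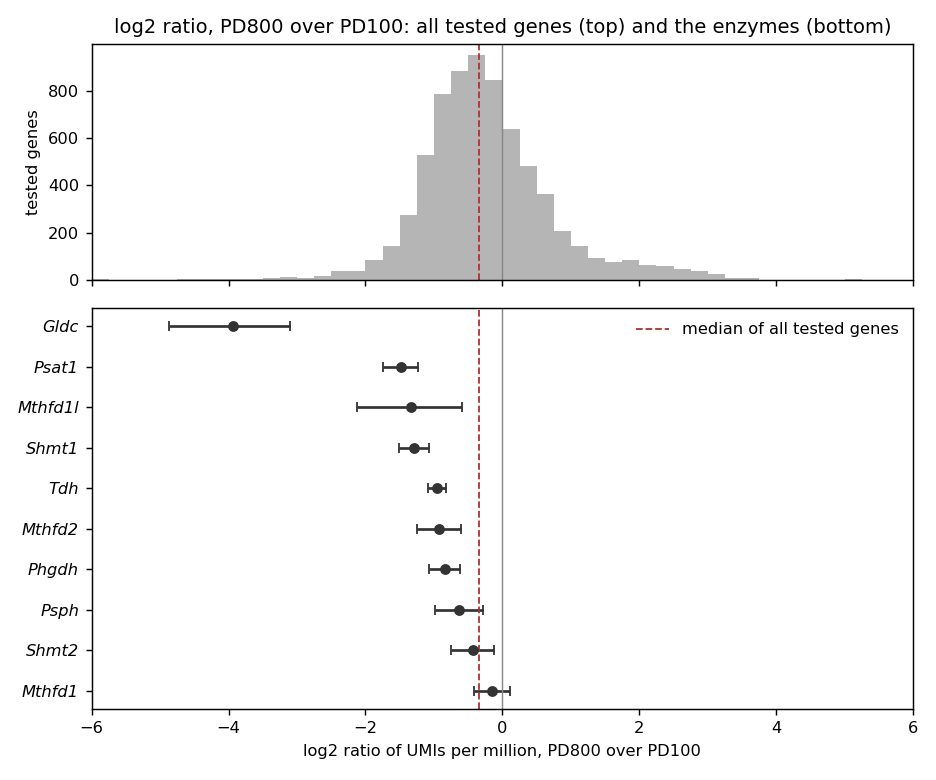
Log2 ratios of CPM, PD800 over PD100, for 6984 tested genes (upper panel, number of genes per bin of 0.25) and for the 10 enzymes (lower panel, points with 95% counting intervals; the x axis is shared and the dashed line is the median of all tested genes, -0.34). The enzymes run from -0.15 for Mthfd1 to -3.93 for Gldc, with 7 intervals wholly to the left of the dashed line.

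In the serine synthesis arm, Psat1 had a lower ratio than the enzymes before and after it. Phgdh, which oxidises 3-phosphoglycerate as the first step (chromosome 3, 98313170 to 98339990, minus strand, coordinates of GRCm38 here and throughout), was counted 357 times in PD100 and 281 times in PD800. Its PD100 level of 195 CPM (176 to 217) compared with 109 (96.5 to 122) in PD800, a log2 ratio of -0.84 (-1.08 to -0.61). The level in PD800 was thus 1.80-fold lower, and 1.42-fold lower relative to the shift.

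Psat1, the aminotransferase of the middle step (chromosome 19, 15904678 to 15947337, minus strand), gave 380 PD100 UMIs and 192 PD800 UMIs. This corresponded to 208 CPM (188 to 230) and 74.4 (64.2 to 85.7), at a log2 ratio of -1.48 (-1.74 to -1.23). Psph, the phosphatase that releases serine (chromosome 5, 129765558 to 129787449, minus strand), had 144 and 131 UMIs. Its levels were 78.8 CPM (66.5 to 92.8) and 50.8 (42.4 to 60.2), with a log2 ratio of -0.64 (-0.99 to -0.28). The intervals of the PD100 and PD800 levels did not overlap for any of the 3 enzymes. Of all 10 enzymes this held for 8, all but Shmt2 and Mthfd1, and of all tested genes the PD800 level lay lower in this way for 35.2%.

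A comparison of 2 genes within each library does not depend on how the libraries are scaled. For each UMI of Phgdh there were 1.06 UMIs of Psat1 in PD100 and 0.683 in PD800, a difference of the log2 ratios of -0.64 (-0.98 to -0.30). Against Psph the difference for Psat1 was -0.85 (-1.27 to -0.43). Phgdh and Psph differed from each other by -0.21 (-0.62 to 0.20), an interval that includes 0. The 3 serine enzymes together summed to 482 CPM in PD100 and 234 in PD800.

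The serine hydroxymethyltransferases differed by compartment. Shmt1, the cytosolic enzyme (chromosome 11, 60788104 to 60811718, minus strand), was counted 461 times in PD100 and 267 times in PD800, at 252 CPM (230 to 277) and 103 (91.4 to 117). Its log2 ratio was -1.29 (-1.51 to -1.07), which is 2.44-fold lower. Shmt2, the mitochondrial enzyme (chromosome 10, 127517123 to 127522444, minus strand), had 168 and 176 UMIs, or 92.0 CPM (78.6 to 107) and 68.2 (58.5 to 79.0). Its log2 ratio of -0.43 (-0.75 to -0.12) was within counting error of the shift, with a relative value of -0.09 (-0.40 to 0.22).

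There were 2.74 UMIs of Shmt1 for each UMI of Shmt2 in PD100 and 1.52 in PD800. Their log2 ratios differed by -0.86 (-1.23 to -0.48). Shmt1 acts in the thymidylate cycle beside Tyms, thymidylate synthase. Its log2 ratio lay below that of Tyms by a difference of -1.07 (-1.33 to -0.82).

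In the folate arm it was the mitochondrial enzymes that had the lower ratios. Mthfd1, the cytosolic enzyme with 3 activities on one chain (chromosome 12, 76255298 to 76319803, plus strand), gave 226 PD100 UMIs and 287 PD800 UMIs, or 124 CPM (108 to 141) and 111 (98.7 to 125). These intervals overlapped, and the log2 ratio of -0.15 (-0.41 to 0.10) included 0. Relative to the shift it was 0.19 (-0.07 to 0.45), so its direction depended on the scaling of the libraries. Mthfd2, a mitochondrial dehydrogenase and cyclohydrolase (chromosome 6, 83305691 to 83325908, minus strand), had 199 and 148 UMIs, or 109 CPM (94.3 to 125) and 57.3 (48.5 to 67.4), with a log2 ratio of -0.93 (-1.24 to -0.61).

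Mthfd1l, the mitochondrial ligase that releases formate (chromosome 10, 3973118 to 4167081, plus strand), had the fewest UMIs of the 10 in PD100. There were 43 UMIs of it in PD100 and 24 in PD800, or 23.5 CPM (17.0 to 31.7) and 9.30 (5.96 to 13.8), and its log2 ratio of -1.34 (-2.13 to -0.59) had a wide interval. The log2 ratio of Mthfd2 lay below that of Mthfd1 by a difference of -0.77 (-1.17 to -0.38), and that of Mthfd1l by -1.19 (-1.95 to -0.42). Mthfd2 and Mthfd1l differed from each other by 0.41 (-0.37 to 1.20). Shmt and folate enzymes therefore did not share an order by compartment: the cytosolic Shmt1 was lower in ratio than the mitochondrial Shmt2, whereas the cytosolic Mthfd1 was higher in ratio than the mitochondrial Mthfd2 and Mthfd1l. Summed by compartment, the 5 mitochondrial enzymes (Shmt2, Mthfd2, Mthfd1l, Gldc and Tdh) went from 929 to 464 CPM and the 5 cytosolic enzymes from 859 to 449 CPM. The mitochondrial sum is mostly Tdh, which held 1146 of its 1696 PD100 UMIs and 837 of its 1198 PD800 UMIs.

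Gldc had the lowest ratio of the 10 enzymes. Glycine decarboxylase (chromosome 19, 30098447 to 30175429, minus strand) gave 140 PD100 UMIs and 13 PD800 UMIs. The level of 76.7 CPM (64.5 to 90.5) in PD100 stood against 5.04 (2.68 to 8.61) in PD800, which is 15.2-fold lower. The log2 ratio of -3.93 (-4.87 to -3.11) took rank 6968 of 6984 tested genes, counted from the highest. The other proteins of the glycine cleavage system had log2 ratios far above it. Gcsh, the lipoyl carrier protein, had -0.84 (-1.03 to -0.66), Dld, the lipoamide dehydrogenase that other complexes also use, -0.93 (-1.31 to -0.55), and Amt, the aminomethyltransferase, -0.47 (-1.05 to 0.10). There was 1.00 UMI of Gldc for each UMI of Dld in PD100 and 0.125 in PD800. The log2 ratio of Gldc lay below that of Dld by a difference of -3.00 (-3.90 to -2.10), below that of Gcsh by -3.08 (-3.92 to -2.24) and below that of Amt by -3.46 (-4.44 to -2.47).

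Tdh (chromosome 14, 63492347 to 63509092, minus strand) had the most UMIs of the 10 in both libraries, 1146 in PD100 and 837 in PD800. PD100 cells were at 627 CPM (592 to 665) and PD800 cells at 324 (303 to 347). The log2 ratio of -0.95 (-1.08 to -0.82) was just short of 2-fold, and was -0.61 (-0.74 to -0.48) relative to the shift. Gcat, which carries out the next step of threonine breakdown, had 249 and 218 UMIs and a log2 ratio of -0.69 (-0.96 to -0.42). Tdh and Gcat differed by -0.26 (-0.55 to 0.03), an interval that includes 0.

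**Figure D2:**
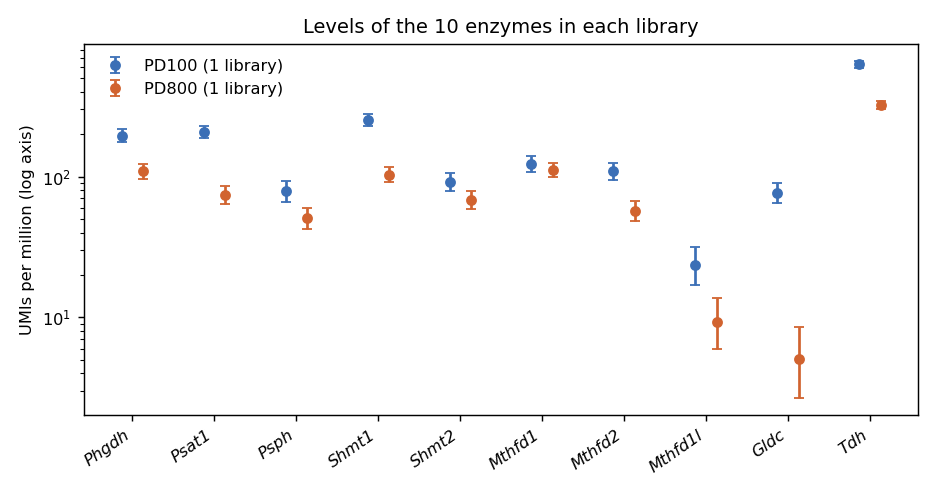
Levels of the 10 enzymes in CPM (log axis) in the PD100 and the PD800 library, 1 library each, with exact Poisson 95% intervals. The PD100 level lies above the PD800 level for all 10, and the intervals overlap for Shmt2 (78.6 to 107 against 58.5 to 79.0) and Mthfd1 (108 to 141 against 98.7 to 125).

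To see in how many cells the enzymes were detected, all cells were reduced to 1000 randomly drawn UMIs, so that both libraries had equal depth and no cell was lost. With exact binomial intervals, Gldc was then seen in 60 of 814 PD100 cells (7.37%, 5.67 to 9.39) but in 4 of 900 PD800 cells (0.444%, 0.121 to 1.13). Averaged over all possible draws the shares of cells with Gldc were 6.84% and 0.474%. Without thinning, 111 PD100 cells (13.6%) and 10 PD800 cells (1.11%) held a Gldc UMI, so the 13 UMIs of PD800 lay in 10 cells. Tdh was present in 40.5% of thinned PD100 cells (37.1 to 44.0) and in 24.6% of thinned PD800 cells (21.8 to 27.5), and in 57.6% and 47.7% without thinning.

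The intervals of 5 of 10 enzymes, Gldc, Tdh and 3 others, did not overlap between the libraries, and the PD800 share lay lower in this way for 15.6% of all tested genes. Psat1 was present in 16.0% of thinned PD100 cells (13.5 to 18.7) and 5.89% of thinned PD800 cells (4.44 to 7.63). Shmt1 was present in 19.7% (17.0 to 22.6) and 9.89% (8.02 to 12.0), and Phgdh in 16.5% (14.0 to 19.2) and 9.78% (7.92 to 11.9). These 3 were less often seen in PD800 cells without thinning as well, Psat1 in 26.4% and 15.7%, Shmt1 in 32.6% and 21.2%, and Phgdh in 28.4% and 22.3%. The intervals of Mthfd2 met narrowly, since it was present in 8.60% of PD100 cells (6.76 to 10.7) and 5.22% of PD800 cells (3.86 to 6.88).

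For the remaining 4 the intervals overlapped more widely. Shmt2 was present in 8.48% of thinned PD100 cells (6.66 to 10.6) and 5.89% of thinned PD800 cells (4.44 to 7.63), Psph in 6.63% and 5.22%, and Mthfd1l in 2.21% and 1.22%. Mthfd1 had nearly the same share in both libraries, 11.1% (8.98 to 13.4) and 11.0% (9.03 to 13.2). These shares come from 1 random draw. In a draw with another seed the intervals of 6 of 10 enzymes did not overlap, Mthfd2 among them (7.10 to 11.1 against 3.77 to 6.76). In that draw the PD800 share lay lower in this way for 16.1% of all tested genes. Mthfd1 was then at 10.2% in PD100 and 10.4% in PD800.

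**Figure D3:**
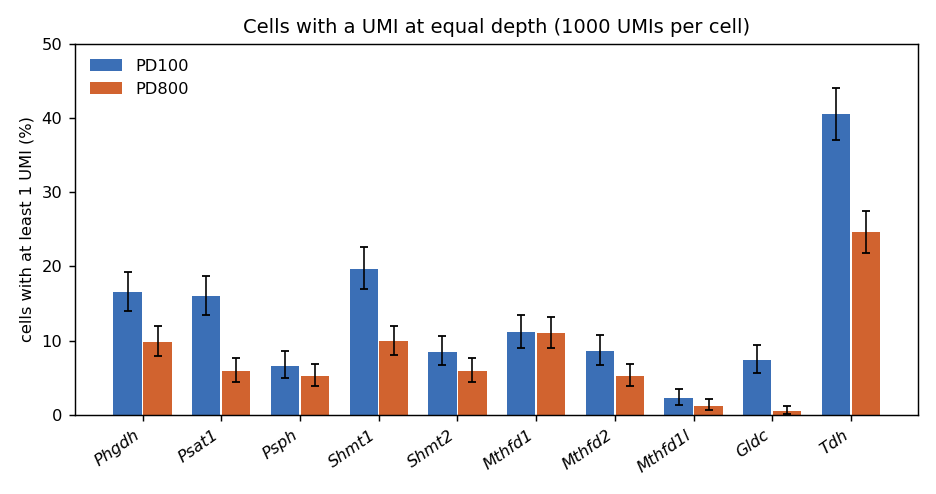
Share of cells with at least 1 UMI of each enzyme after every cell was thinned to 1000 UMIs (bars, with exact binomial 95% intervals; 814 PD100 cells and 900 PD800 cells, 1 library each). In this draw the PD100 bar is the higher for all 10 enzymes (9 of 10 with another seed), from 40.5% against 24.6% for Tdh to 11.1% against 11.0% for Mthfd1.

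Counted together, the 10 enzymes gave a mean of 1.83 UMIs per thinned cell in PD100 and 0.928 in PD800. At least 1 UMI of any of them was present in 76.8% of PD100 cells (73.7 to 79.6) and 57.4% of PD800 cells (54.1 to 60.7). At least 3 different enzymes were seen in 124 PD100 cells (15.2%) and in 27 PD800 cells (3.00%). The count per cell was somewhat wider than for a single Poisson mean in both libraries, with a variance of 1.35 times the mean in PD100 and 1.12 times in PD800. Single genes were commonly wider than a Poisson mean as well, though they were not matched to the level of this sum. For the 1383 single genes with a mean of at least 0.1 UMIs per thinned cell in both libraries, the median was 1.32 in PD100 and 1.20 in PD800. Cells without any UMI of the 10 made up 23.2% of PD100 cells where a single Poisson mean gives 16.0%, and 42.6% of PD800 cells where it gives 39.5%.

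**Figure D4:**
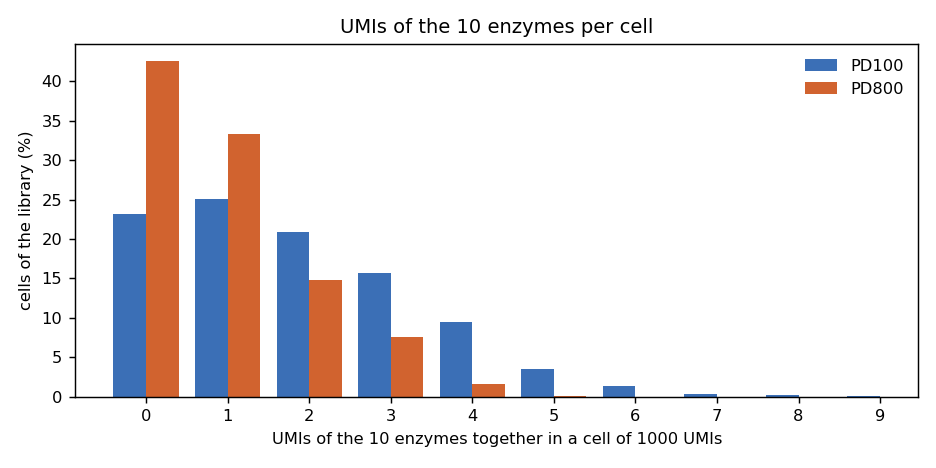
UMIs of the 10 enzymes together per cell thinned to 1000 UMIs (x axis) against the share of the library's cells in percent (y axis), for 814 PD100 cells and 900 PD800 cells. The share of cells with 0 UMIs is 23.2% in PD100 and 42.6% in PD800, and the highest count is 9 UMIs in a PD100 cell and 5 in a PD800 cell.

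The spread of each enzyme between cells was set beside that of genes counted at a like level in the same library, whether tested or not. The variance of Tdh in thinned PD100 cells was 1.44 times its mean, above that of 85.0% of 140 such genes. In PD800 it was 1.18 times the mean, above that of 41.7% of 259 such genes. For the other 9 enzymes these percentages ran from 17.1% to 77.7% in PD100 and from 13.3% to 75.0% in PD800. Over the 45 pairs, Pearson's r across the 814 thinned PD100 cells had a median of 0.00112 and ran from -0.073 to 0.1, and across the 900 PD800 cells it had a median of -0.00979 and ran from -0.0609 to 0.0924. With so few UMIs per gene and cell, nothing is read from correlations of this size. Genes with an r of at least 0.2 were found for Mthfd2 (Zfand3, 0.202) and Mthfd1l (Snx1, 0.218; Ccny, 0.209; Cabin1, 0.201) in PD100, and for Gldc (Ap2b1, 0.377; Dnajc12, 0.297; Trip13, 0.293) and Mthfd1l (Snx8, 0.278; S100a6, 0.273; Cln8, 0.254) in PD800. The PD800 values rest on the 4 thinned cells with a Gldc UMI and the 11 with a Mthfd1l UMI.

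Within PD100, 40 cells carried at least 5 UMIs of the extraembryonic endoderm markers, and 0 of 900 PD800 cells did. These endoderm-marker cells had a median depth of 2379.5 UMIs, against 2145 in the other 774 cells. Tdh was at 198 CPM (119 to 309) in them and at 651 (614 to 691) in the other PD100 cells. Shmt1 was also lower in the endoderm-marker cells, at 72.8 CPM (29.3 to 150) against 262 (239 to 288). Tdh was seen in 7 of these 40 cells after thinning (17.5%, 7.34 to 32.8) and in 41.7% of the others (38.2 to 45.3). The intervals of the other 8 enzymes overlapped between these sets of cells, with Psat1 at 260 CPM (168 to 384) and 205 (184 to 228). The 40 cells held 96177 UMIs, so their intervals are wide. The share of all tested genes without overlap between these sets was not counted. The 10 enzymes together were at 1154 CPM (949 to 1390) in the endoderm-marker cells and 1822 (1759 to 1887) in the others. Without the 40 cells the log2 ratio of Tdh moved from -0.95 to -1.01, just past 2-fold, and Gldc was at -3.96. The median of the genes tested in that set of cells was -0.32.

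Lefty1 and Lefty2, secreted inhibitors of Nodal signalling, marked 189 PD100 cells and 13 PD800 cells. Gldc was at 104 CPM (76.6 to 138) in the PD100 cells with a Lefty UMI and at 67.6 (54.6 to 82.9) in the 625 without, and these intervals overlapped. In the 887 PD800 cells without a Lefty UMI Gldc was at 5.11 CPM (2.72 to 8.73), below the level in the matching PD100 cells. None of the 13 PD800 cells with a Lefty UMI held Gldc, where 3 counts would correspond to 83.4 CPM and the exact Poisson interval reaches 103 CPM. The other 9 enzymes had overlapping intervals between PD100 cells with and without a Lefty UMI. For all tested genes this overlap was not counted.

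The ratios were also taken within ranges of depth. In cells of 1000 to under 2000 UMIs (349 PD100 cells and 249 PD800 cells) the 10 enzymes together had a log2 ratio of -0.85 (-1.04 to -0.67). In cells of 2000 to under 4000 UMIs (432 and 488 cells) it was -0.95 (-1.05 to -0.85), and in cells of 4000 UMIs or more (33 and 163 cells) -1.09 (-1.29 to -0.88). The medians of the genes tested within each range were -0.25, -0.33 and -0.14. Relative to these medians the 10 enzymes together were at -0.60, -0.62 and -0.95. Gldc had log2 ratios of -3.84, -3.55 and -5.14 in the 3 ranges, and Psat1 of -1.55, -1.58 and -1.46. Mthfd2 was uneven across depth, at -0.31 (-1.12 to 0.46), -0.90 (-1.31 to -0.50) and -1.91 (-2.65 to -1.14). Mthfd1 was at 0.09, -0.23 and 0.81, each with an interval that includes 0.

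Other genes of the pathway were taken from 6 lists of 62 genes in all, of which 44 were tested. Of these, 15 were at least 2-fold lower in PD800 (34.1%, against 16.9% of all tested genes) and 0 at least 2-fold higher (against 9.22%), and 38 of 44 had a ratio below 0 (86.4%, against 66.6%). The median of the 44 log2 ratios was -0.72. Relative to the shift the counts were 5 of 44 lower (11.4%, against 7.79%) and 1 of 44 higher (2.27%, against 13.9%). The same background of 16.9% belongs beside the counts of each list that follow, which rest on 4 to 12 genes. The 4 tested partners of Gldc and Tdh, Gcsh, Dld, Amt and Gcat, were all below 0, with 0 of 4 past 2-fold in either direction.

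The folate pool list had 7 tested genes of 13. At least 2-fold lower were 2 of 7, Slc19a1, the reduced folate carrier, at -1.43 (-2.25 to -0.65), and Fpgs, which adds glutamates to folate, at -1.02 (-1.43 to -0.61). Tyms, the gene of the list with most UMIs, was at -0.22 (-0.35 to -0.08). The median of the 7 ratios was -0.22, above the shift of -0.34, and 4 of 7 were below 0. Above 0 were Folr1 at 0.62 (0.31 to 0.94), Mtfmt at 0.24 (-0.24 to 0.74) and Ggh at 0.09 (-0.53 to 0.72). Of the methionine cycle and transsulfuration, 8 of 10 genes were tested and 2 were at least 2-fold lower, Cth, cystathionine gamma-lyase, at -1.44 (-2.07 to -0.83), and Ahcy, which clears S-adenosylhomocysteine, at -1.26 (-1.97 to -0.56). Mat2a and Mat2b, catalytic and regulatory parts of methionine adenosyltransferase, were at -0.56 (-0.69 to -0.44) and -0.62 (-0.89 to -0.35).

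Purine synthesis uses both glycine and formyl-folate. All 12 of its listed genes were tested, and 5 of 12 were at least 2-fold lower. Gart, which adds glycine and the first formyl group, went from 1344 CPM (1292 to 1399) to 553 (524 to 582), a log2 ratio of -1.28 (-1.38 to -1.19). Atic, which uses the second formyl group, was at -1.39 (-1.67 to -1.12). The other genes past 2-fold were Adss at -1.18, Ppat, the first committed step, at -1.05, and Impdh1 at -1.02, and relative to the shift Atic alone of the 12 remained past 2-fold. Impdh2, on the way to GMP, had most UMIs after Gart and a log2 ratio of -0.75 (-0.88 to -0.62).

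Of 9 listed transporters of serine and glycine 6 were tested, and 3 were at least 2-fold lower. These were Slc25a38, a mitochondrial glycine carrier, at -1.48 (-2.09 to -0.89), Slc38a1 at -1.27 (-1.74 to -0.81) and Slc1a5 at -1.08 (-1.80 to -0.39), both neutral amino acid transporters of the plasma membrane. Sfxn1, a mitochondrial serine carrier, was at -0.68 (-0.88 to -0.49), and Slc38a2 at -0.53 (-0.91 to -0.16).

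Atf4 is a transcription factor that raises serine synthesis and amino acid transport genes when amino acids are scarce. Atf4 itself went from 78.3 CPM (66.0 to 92.2) to 40.3 (32.9 to 48.8), a log2 ratio of -0.96 (-1.34 to -0.58). Of 14 genes listed around it 7 were tested and 3 were at least 2-fold lower. Ddit4, an inhibitor of mTORC1 signalling, was at -2.52 (-3.33 to -1.78), Slc7a5 at -1.31 (-1.98 to -0.65) and its partner chain Slc3a2 at -1.11 (-1.28 to -0.94). Eif4ebp1, a repressor of cap-dependent translation and the gene of the list with most UMIs, was at -0.84 (-0.91 to -0.76). Not all members of the list lay below the shift: Asns, asparagine synthetase, was at -0.20 (-0.38 to -0.01), and Pycr1, a proline synthesis enzyme, at 0.69 (-0.01 to 1.43), which relative to the shift is 1.03 (0.33 to 1.77).

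The enzymes lie on 8 chromosomes, and the ratio of each was set beside that of its nearest tested genes, 10 on either side. Phgdh had a lower ratio than all 20 of its neighbours on chromosome 3, whose median was 0.39. Gldc likewise lay below all 20 of its neighbours on chromosome 19, whose median of -0.35 equalled the shift to within 0.01. Mthfd2, with a neighbour median of -0.13, had 3 of 20 neighbours below it. Mthfd1l differed from these. It is the tested gene nearest to the start of chromosome 10, so that its 10 neighbours all lie on one side, between 4266380 and 11298052. Of these 10 neighbours 9 were at least 2-fold lower (against 16.9% of all tested genes), and their median of -1.25 was close to the ratio of Mthfd1l, -1.34. Whether the level of Mthfd1l moved with its neighbourhood was not tested.

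Shmt1 and Psat1 had neighbours that were also on the low side, with medians of -0.86 and -0.84. Below Shmt1 lay 4 of its 20 neighbours, and 4 of 20 below Psat1. The neighbours of Mthfd1 had a median of 0.04, those of Shmt2 -0.55, those of Tdh -0.60 and those of Psph -0.30, with 6, 12, 6 and 7 of 20 below the enzyme itself. Gldc and Psat1 share chromosome 19, where the median over 244 tested genes was -0.72.

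**Figure D5:**
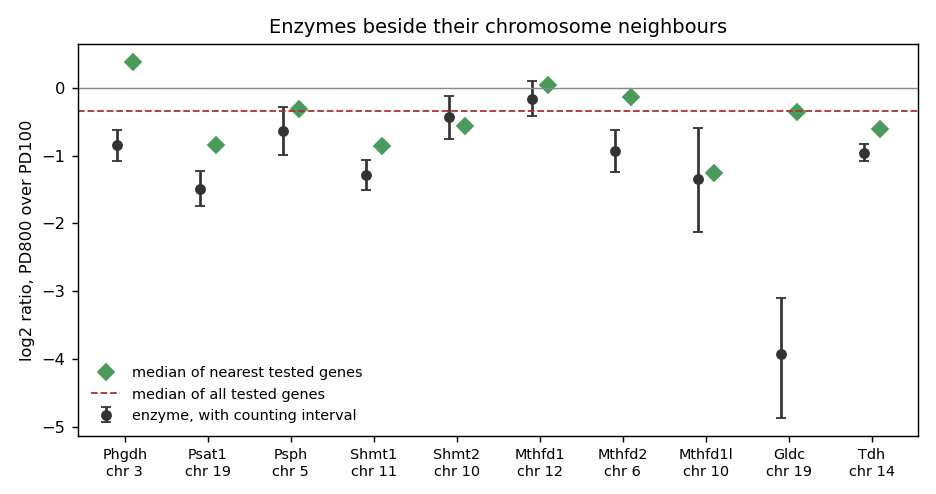
Log2 ratio, PD800 over PD100, of each enzyme (circles, with 95% counting intervals) and the median of its nearest tested genes on the same chromosome (diamonds; 20 genes, or 10 for Mthfd1l). The dashed line is the median of all tested genes. The diamond lies above the interval of the enzyme for Phgdh, Psat1, Shmt1, Mthfd2, Gldc and Tdh, and inside it for Psph, Shmt2, Mthfd1 and Mthfd1l.

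Promoter windows from RefSeq (GRCm38.p6, 250 bases before to 50 bases after a gene's start) were matched to 9 of the 10 enzymes, with 10 windows in all because Psat1 had 2, and with none for Tdh. They were searched on both strands for TGATGCAA, a sequence of the kind bound by Atf4, and for CACGTG, the E-box that Myc and related factors bind. TGATGCAA was found in 0.895% of 32851 promoter windows, in 0.535% of the 6735 windows of tested genes and in 0 of the 10 windows of the enzymes. CACGTG was found in 7.15% of all windows, in 11.1% of those of tested genes and likewise in 0 of 10. The 2 motifs do not overlap in sequence, and a missing match says only that these letters are absent from these windows. Not all windows lie at the gene starts given above, which are those of GENCODE. By those coordinates the windows of Mthfd2 (83317555 to 83317854), Shmt1 (60811216 to 60811515) and both of Psat1 lie inside the gene.

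Gldc and Psat1 were the enzymes at least 2-fold lower relative to the shift, and the 250 bases before their starts are shown for that reason, read 5′ to 3′ on the minus strand with each CpG dinucleotide in capitals. Starts here are those of RefSeq. The window of Gldc is chr19:30175442-30175691 and that of Psat1, before the outer of its 2 RefSeq starts, is chr19:15925060-15925309. In the GENCODE coordinates given above Psat1 reaches to 15947337, so its window lies inside the gene by that annotation.
Gldc: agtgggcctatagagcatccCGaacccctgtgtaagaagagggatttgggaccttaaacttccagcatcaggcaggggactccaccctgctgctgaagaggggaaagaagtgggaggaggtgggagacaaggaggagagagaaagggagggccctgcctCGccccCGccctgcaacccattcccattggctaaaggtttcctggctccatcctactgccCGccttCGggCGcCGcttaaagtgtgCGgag
Psat1: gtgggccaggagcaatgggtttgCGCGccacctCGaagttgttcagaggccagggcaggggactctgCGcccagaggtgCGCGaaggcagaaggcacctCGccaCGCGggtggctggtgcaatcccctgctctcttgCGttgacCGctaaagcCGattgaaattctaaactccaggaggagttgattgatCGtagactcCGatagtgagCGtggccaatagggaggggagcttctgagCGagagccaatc
The stretch before Gldc held 8 CpG dinucleotides and that before the outer RefSeq start of Psat1 held 16. Over the 6735 promoter windows of tested genes the median was 17, and 83.8% of them held as many as Gldc or more, against 54.9% for this start of Psat1. The stretch before its inner start held 24.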

How the data were processed

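Single-cell RNA was measured in 1 PD100 and 1 PD800 library of Terc-/- mESCs, grouped by the time point in the labels. The authors deposited raw counts of UMIs for each barcode and gene, produced by the inDrops pipeline against a GRCm38 transcriptome. Strand use and the annotation release are not given in the sources used here. Barcodes with fewer than 1000 UMIs or over 20% mitochondrial UMIs were left out here, by the thresholds the study states; the numbers of cells kept, 814 and 900, differ from those it gives, for a reason not given in the sources used here. UMIs were summed over cells and scaled to 1000000 per library (CPM). With 1 library per group no test was made. Intervals are 95% and cover counting error only: exact Poisson for levels, exact conditional for ratios, exact binomial for shares, and normal for differences between log2 ratios of 2 genes. A gene needed at least 50 UMIs, summed over the libraries, to be tested. Cells were thinned to 1000 UMIs with random seed 1. Doublets were called with Scrublet at an expected rate of 5% (14 PD100 and 8 PD800 cells) and kept. Positions came from GENCODE for 6788 of 6984 tested genes. The members, lists, motifs and rules were chosen with earlier results of these data known. All 10 members were named, with every listed pathway gene past 2-fold, the 2 of each list with most UMIs, and genes correlated at 0.2 or more over cells; 1 gene that this rule names is not reported here. The CpG counts, depth ranges, pairs of genes and counts of all enzymes per cell were added after values had been seen. So was the mention of Amt, Dld, Asns, Atf4, Folr1, Mtfmt and Ggh. The alternatives tried were the cell filter, depth, doublets, endoderm-marker cells, scaling, gene minimum and thinning. Steps were tested on simulated data. Python 3.11.15, NumPy 2.4.6, SciPy 1.17.1, pandas 2.3.3, Scanpy 1.11.5 and matplotlib 3.10.9 were used.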

Additional observations from a re-analysis of the deposited data

Results flagged for a closer look

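The filter left out 477 PD100 and 758 PD800 barcodes for having fewer than 1000 UMIs, and these were in none of the comparisons above. In them 7 of 10 enzymes were at least 2-fold lower in PD800, against 23.3% of the 6727 tested genes with more than 3 UMIs in a library. Of the 7 enzymes with at least 50 UMIs there, 5 were at least 2-fold lower, against 14.8% of 2246 such genes. Gldc had 14 UMIs in PD100 and 1 UMI in PD800, a log2 ratio of -4.67 (-10.07 to -1.95). Psat1 had 60 and 25 UMIs and a log2 ratio of -2.12 (-2.86 to -1.43), and Shmt1 had 54 and 36 UMIs and a log2 ratio of -1.44 (-2.09 to -0.81). Mthfd1l had 7 and 5 UMIs, and its log2 ratio of -1.34 (-3.34 to 0.53) had an interval that includes 0. Psph was at -1.51 (-2.37 to -0.68), Phgdh at -1.32 (-1.94 to -0.70) and Tdh at -1.05 (-1.40 to -0.71). All 10 enzymes together had a log2 ratio of -1.14 (-1.34 to -0.94) in these barcodes. They came from the same 2 libraries as the cells, so they are no replicate of the comparison, and free RNA was not told apart from shallow cells.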

How the results depend on the processing

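With 1 library per time point, intervals cover counting error only and no replicate could be left out. The count of enzymes at least 2-fold lower, 4 of 10 (against 16.9% of tested genes), was 2 with median-of-ratios scaling (against 7.79%). It was 1 in cells of 1000 to under 2000 UMIs, where 8 of 10 reached 50 UMIs. The share of all tested genes past 2-fold was not counted in these cells, where 2875 genes were tested with a median of -0.25. Gldc (41 and 2 UMIs) and Mthfd1l (14 and 4 UMIs) did not reach 50 UMIs in these cells and were not counted. Their log2 ratios there, -3.84 (-6.93 to -1.89) and -1.29 (-3.35 to 0.38), were past 2-fold. Over all tested genes, the counts of 1178 lower and 644 higher became 544 and 973 with median-of-ratios scaling. With 2 libraries this scaling moves every ratio by nearly the shift, so it repeats the values relative to the shift and is no separate check. The counts were 1916 and 995 with a minimum of 20 UMIs per gene, 401 and 334 with a minimum of 200, and 3213 and 1694 with a minimum of 1. Except for Mthfd1 and Mthfd1l, the enzymes stayed below 0 in 11 of 11 alternatives, Gldc between -5.14 and -3.59 and Psat1 between -1.57 and -1.14. Mthfd1l stayed below 0 in the 10 that gave it a ratio; in cells of 4000 UMIs or more it had 0 UMIs in PD100 and 8 in PD800. Mthfd1 stayed below 0 in 8 of 11, with 0.19 under median-of-ratios scaling and 0.81 in the cells of 4000 UMIs or more, of which PD100 had 33. In that last range Gldc was at -5.14 and Mthfd2 at -1.91. The share of thinned PD100 cells with Gldc, 7.37%, was 5.41% with another random seed and 11.6% at 2000 UMIs per cell.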
